A study of Mus musculus with 8 samples.

Results

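The mitochondrial carrier family was examined in RNA sequencing counts of fibroblasts cultured from mouse embryos. Members were the rows of the count table named Slc25a followed by digits, together with Mtch1 and Mtch2, and they came to 40 of the 12211 genes of the table. All 40 had enough counts to be tested. The other 11 genes of the family that the GENCODE annotation lists, among them Ucp2 and Ucp3, had no row in the count table and could not be analysed. There were 4 libraries titled PUS10KO (genotype given as PUS10 KO) and 4 titled control (genotype given as WT), numbered 1 to 4 in each genotype. Both were grown in the same serum-containing medium with antibiotics, and no treatment is named. PUS10 converts uridine to pseudouridine in RNA, and the series title names tRNA fragmentation and inflammation driven by retrotransposons. The labels give neither the way the gene was disrupted, nor the age or sex of the embryos, nor whether each library stands for its own culture, line or animal. The p-values therefore measure only the spread between these libraries, which may be technical.

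Total counts ran from 17561114 to 24563499 per library. Pus10 was lower in every PUS10KO library, at 13.8 ± 1.6 CPM (reads scaled to a common library total by the TMM method) in PUS10KO and 46.1 ± 6.46 CPM in control (SD, n = 4 each; log2 fold change -1.74, edgeR adjusted p = 0.000189). The Y-linked genes Uty, Kdm5d and Eif2s3y summed to 4579, 4605 and 5989 counts over the PUS10KO libraries and to 1, 2 and 0 counts over the control libraries, so sex chromosome content and genotype cannot be told apart here. All 8 fibroblast markers were in the table, with a summed level of 10216 to 15523 CPM in PUS10KO and 16455 to 20584 CPM in control. Of them Thy1, a fibroblast surface protein, had 2 counts in all PUS10KO libraries together and 1726 in the control libraries. Of the markers of other cell types none of the 4 epithelial and none of the 4 erythroid genes was in the table. Kdr, the one endothelial marker of 3 in the table, had 0.541 to 2.42 CPM in PUS10KO and 1.48 to 3.31 CPM in control. The 2 leukocyte markers of 4 in the table, Cd68 and Csf1r, summed to 2.15 to 5.45 CPM in PUS10KO and 2.63 to 6.62 CPM in control. Des, the one muscle marker of 3 in the table, had 0.796 to 1.3 CPM in PUS10KO and 0.927 to 1.8 CPM in control. Fabp4, the one adipocyte marker of 4 in the table, had 2.23 to 6.66 CPM in PUS10KO and 0.985 to 2.92 CPM in control. The part of any of these differences in the results below was not tested.

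Carriers of the Slc25 family are nuclear-encoded proteins that sit mostly in the inner mitochondrial membrane and exchange nucleotides, phosphate, keto acids, amino acids, cofactors and iron between cytosol and matrix. ADP/ATP and phosphate carriers feed ATP synthase, the aspartate/glutamate and oxoglutarate carriers form the malate-aspartate shuttle, and the citrate carrier exports carbon for lipid synthesis. A few members lie elsewhere, in the outer membrane (Mtch1, Mtch2, Slc25a46) or in peroxisomes (Slc25a17).

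The family changed little between the genotypes, with 1 exception that was already known when the family was chosen. Slc25a43, an X-linked carrier whose substrate is not settled, was counted in all 4 PUS10KO libraries and in no control library. With genotype as the only term of the fit, 1 of the 40 members rose and none fell, while the other 39 missed an adjusted p of 0.05 (edgeR quasi-likelihood test, two-sided, Benjamini-Hochberg adjustment over 11909 genes). That is 2.5% of the members, against 13.0% of all genes tested, of which 5.90% rose and 7.11% fell. Without adjustment 4 members had p under 0.05. DESeq2 called 2, both higher in PUS10KO, against 19.4% of all genes in either direction and 9.09% that rose. Limma voom called 1, also higher, against 12.7% of all genes in either direction and 5.87% that rose. The median log2 fold change of the members was 0.07, against 0.01 over all genes, and the median size of the change was 0.19, against 0.26. In 37 members, or 92.5%, the log2 fold change was under 0.5 in size, as it was in 73.5% of all genes. The levels of the members over the 8 libraries span several orders of magnitude, as the plot of levels shows.

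The sequences before the RefSeq starts of the adjacent X-linked pair Slc25a43 and Slc25a5, and of Slc25a4, the other ADP/ATP carrier, are shown because the first of these genes parted the genotypes completely and the other two are the most abundant members. Each is the 250 bases before the RefSeq start site (GRCm38.p6), written 5′ to 3′ on the gene's strand, with every CG dinucleotide in capitals. The windows are chrX:36743382-36743631 (plus strand) for Slc25a43, chrX:36795347-36795596 (plus strand) for Slc25a5 and chr8:46211063-46211312 (minus strand) for Slc25a4. RefSeq and GENCODE place the starts differently: the RefSeq start of Slc25a4 is base 46211062, while the GENCODE gene begins further upstream, at 46211284, so 222 of the 250 bases of its window lie inside the GENCODE gene. The windows of Slc25a43 and Slc25a5 lie wholly before the GENCODE genes.
Slc25a43: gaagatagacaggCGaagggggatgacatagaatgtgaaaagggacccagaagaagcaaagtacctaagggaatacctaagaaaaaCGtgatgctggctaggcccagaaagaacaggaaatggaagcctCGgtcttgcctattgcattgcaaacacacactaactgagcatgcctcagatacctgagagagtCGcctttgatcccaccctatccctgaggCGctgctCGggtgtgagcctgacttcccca
Slc25a5: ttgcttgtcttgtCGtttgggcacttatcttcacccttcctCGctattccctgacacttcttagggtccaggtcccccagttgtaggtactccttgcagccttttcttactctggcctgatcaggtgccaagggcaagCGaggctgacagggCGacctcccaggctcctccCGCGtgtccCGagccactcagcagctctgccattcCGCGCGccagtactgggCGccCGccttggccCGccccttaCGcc
Slc25a4: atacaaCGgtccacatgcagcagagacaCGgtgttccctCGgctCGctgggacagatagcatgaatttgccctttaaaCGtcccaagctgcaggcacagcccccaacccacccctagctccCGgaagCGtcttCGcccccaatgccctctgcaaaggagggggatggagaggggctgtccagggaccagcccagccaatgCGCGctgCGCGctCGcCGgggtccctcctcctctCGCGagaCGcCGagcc
The Slc25a43 window held 6 CG dinucleotides and 50.8% G and C. The Slc25a5 window held 14 and 61.6%, and the Slc25a4 window 18 and 64.8%. Over the 42 windows of the 32 members found in the RefSeq table the median was 12.5 CG dinucleotides, with a range from 4 to 43, and over 12166 windows of tested genes it was 16.0. Of the tested genes' windows 15.2% held fewer than that of Slc25a43, and 9 member windows, Slc25a43 included, held 6 or fewer. Over all 32817 windows of the RefSeq table the median was 6.0, the same as in Slc25a43, and 49.7% held fewer.

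Short motifs were searched in the same windows on both strands. None of the 6 matched in the Slc25a43 window. In the Slc25a5 window the core of the SP1 motif, GGGCGG, lay at bases -14 to -9 on the other strand, printed as CCGCCC. In the Slc25a4 window CCGGAAG, an ETS motif, lay at -130 to -124 and CCAAT at -112 to -108 and -56 to -52. The Slc25a4 matches were on the strand printed. GGGCGG was in 76.2% of the member windows, 58.6% of the windows of tested genes and 32.7% of all 32817 windows. CCAAT was in 45.2%, 35.7% and 33.8% of them. The NRF1 motif was in 4.76%, 8.16% and 3.73%, and CCGGAAG in 14.3%, 13.7% and 6.9%. TATAAA was in 0.0%, 6.35% and 12.4%, and the YY1 motif AAGATGGC in 0.0%, 1.96% and 1.56%. The motifs were counted separately and their matches may overlap, as the windows of genes with several start sites also may. A match is a description of letters, not a bound site.

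**Figure D1:**
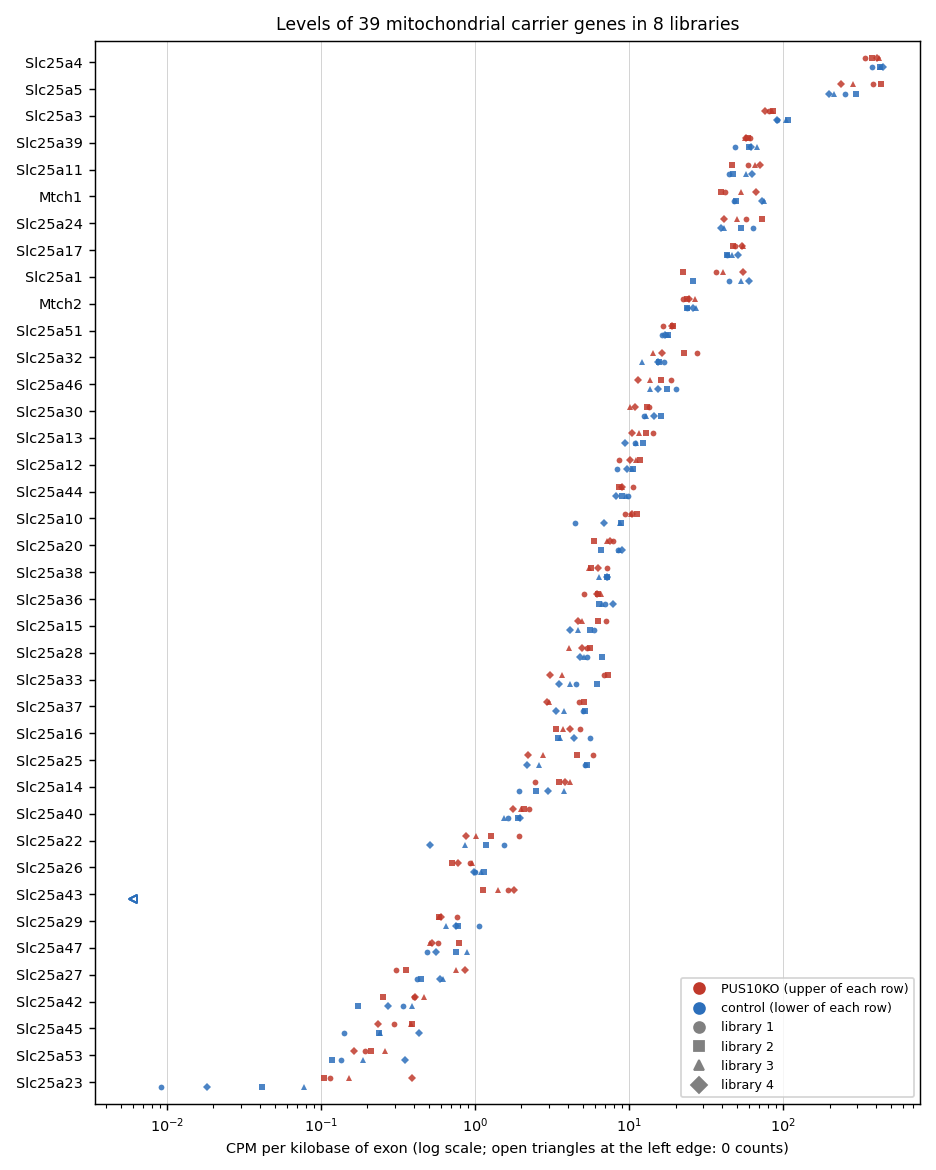
Level of 39 of the 40 carrier genes in CPM per kilobase of exon (log axis) in the 4 PUS10KO and 4 control libraries, 1 point per library, ordered by level; open triangles at the left edge mark 0 counts. Slc25a4 and Slc25a5 lead in every library, and Slc25a43 is the only gene with the control libraries at 0.

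Slc25a43 (ENSMUSG00000037636.6, GRCm38 chromosome X, 36743659 to 36777202, plus strand) had 53, 50, 59 and 59 counts in PUS10KO libraries 1 to 4 and 0 counts in each control library. This was 2.92, 1.99, 2.49 and 3.19 CPM in PUS10KO, a mean of 2.65 ± 0.526 CPM (SD, n = 4), against 0 CPM in control. The 4 PUS10KO libraries were close to each other and none overlapped the control libraries. Against a floor of 3 counts over the control group, or 0.0379 CPM, Slc25a43 was at least 68.2-fold higher in PUS10KO. That floor covers counting error only. The edgeR adjusted p was 0.000695, and the gene was called in all 8 fits that left out 1 library (adjusted p 0.00128 to 0.00369). That the gene was counted in 1 genotype only was known when the family was chosen. With 0 counts in control it passed the filter on low counts through PUS10KO alone. These p-values are therefore no independent support for the difference. The fitted log2 fold change depends on how counts of 0 are handled and is no measure of size: it was 8.77 by edgeR and 1.37 on the deposited normalized values with the block. By level per kilobase of exon, averaged over both genotypes, Slc25a43 was at position 33 of the 40 members. In PUS10KO alone its 1.49 CPM per kilobase was above Slc25a22 (1.27) and Slc25a26 (0.841), which stand higher in that order. Fewer cells with the transcript and less of it per cell cannot be told apart in bulk RNA, for this and the other genes. Of the 12211 genes 15, or 0.123%, had 0 counts in all 4 control libraries, and 7, or 0.0573%, had 0 counts in all 4 PUS10KO libraries. Of the 15 genes 2 were X-linked, Slc25a43 and Cfap47.

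The genes on either side of Slc25a43 were counted in both genotypes. Of the 10 nearest tested genes on each side, 2 rose (Il13ra1, an interleukin receptor chain, and Agtr2, an angiotensin receptor) and none fell, where 5.90% of all genes rose and 7.11% fell. None of the 20 was at 0 in every control library. Their median log2 fold change was 0.26, and that of the 395 tested X-linked genes was 0.2. Akap17b, whose end lies 98.3 kb before Slc25a43, differed by 0.12 on the log2 scale (edgeR adjusted p = 0.841), and C330007P06Rik, which begins 46.5 kb after it, by 0.2 (adjusted p = 0.388). With the library number as a block in the fit 8 of the 20 neighbours rose and none fell, where 19.1% of all genes rose.

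Il13ra1 had 99.3, 103, 133 and 170 CPM in PUS10KO libraries 1 to 4, against 22.7, 21.1, 31.2 and 87.5 CPM in control libraries 1 to 4. Control 4 was the highest control library and lay below all PUS10KO libraries (log2 fold change 1.64, edgeR adjusted p = 0.0479). The call was kept in 1 of the 8 fits that left out a library, with an adjusted p up to 0.123. Agtr2 had 5.84, 8.67, 75.8 and 81.0 CPM in PUS10KO, against 0, 0, 0.103 and 0.192 CPM in control (edgeR adjusted p = 0.00286 between the genotypes). Libraries 3 and 4 were the higher ones in both genotypes, which in control rests on 0, 0, 2 and 4 counts. The difference between library numbers was not tested. Agtr2 lies far from Slc25a43 on the chromosome, at 21484544 to 21489164, since the tested genes are sparse on that side.

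**Figure D2:**
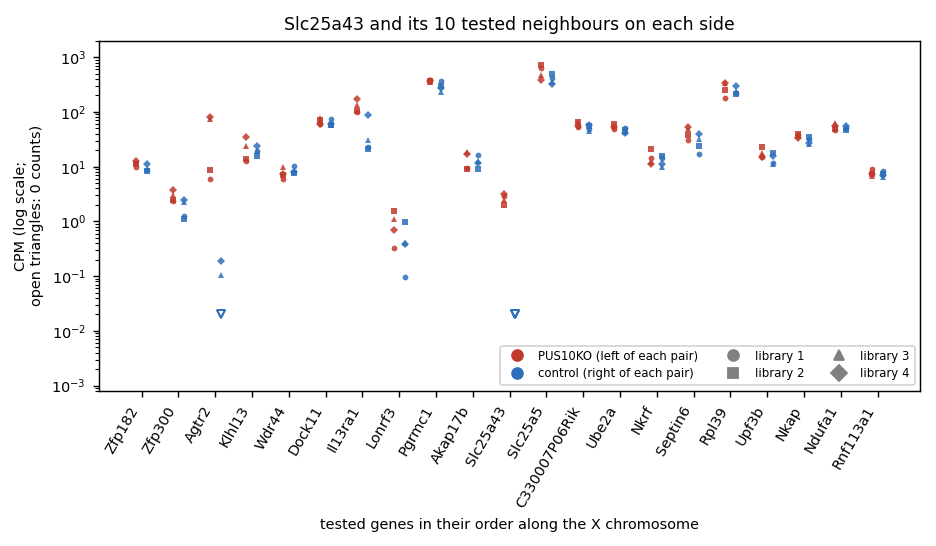
CPM (log axis) of Slc25a43 and its 10 tested neighbours on each side, in their order along the X chromosome and not to scale, with 1 point per PUS10KO and per control library; open triangles mark 0 counts. Slc25a43 is counted in PUS10KO only, and its neighbour Slc25a5 is among the most abundant genes of the stretch in both genotypes.

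Slc25a53, the other member with no settled substrate and also X-linked, had 1.65 ± 0.322 CPM in PUS10KO and 1.57 ± 0.841 CPM in control (SD, n = 4 each; log2 fold change 0.07, edgeR adjusted p = 0.937). The 4 X-linked members were Slc25a43, Slc25a53, Slc25a5 and Slc25a14, and apart from Slc25a43 none of them passed the test in the fit with genotype only.

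The libraries of the same number deviated together from their genotype means, so a fit with the number as a block was run beside the one above. In it 5 members rose and 3 fell, or 20.0% of the 40, against 39.0% of all genes, of which 19.1% rose and 19.9% fell. The risers were Slc25a43, Slc25a23, Slc25a10, Slc25a5 and Slc25a32. The members that fell were Slc25a1, Slc25a3 and Mtch1. The other 32 had log2 fold changes between -0.36 and 0.38. Each of the 8 differed in the same direction in all 4 pairs, as the plot of paired libraries shows for 7 of them. The block fit tests these same differences, so this adds no support to the calls. It does not set the 8 apart either, since members without a call, such as Slc25a4 and Slc25a20, also kept their direction in all 4 pairs. The share of members called was below the share of all genes called in either fit.

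**Figure D3:**
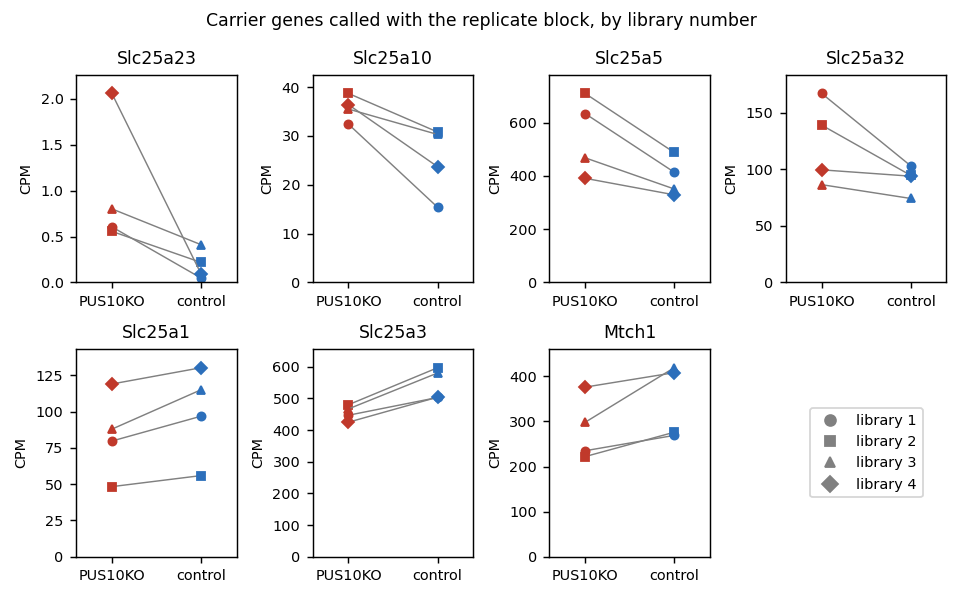
CPM of the 7 members other than Slc25a43 that edgeR called with the library number as a block, in PUS10KO (left) and control (right). A line joins the libraries of the same number. Slc25a23, Slc25a10, Slc25a5 and Slc25a32 were higher in PUS10KO in all 4 pairs, and Slc25a1, Slc25a3 and Mtch1 lower in all 4.

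Among the ADP/ATP and phosphate carriers, none of the 3 members in the table passed the test with genotype only, and with the block 1 rose and 1 fell. Slc25a5, the ADP/ATP carrier of dividing cells (ENSMUSG00000016319.3, chromosome X, 36795651 to 36798807, plus strand, starting 18.4 kb after the end of Slc25a43), had 634, 709.6, 468 and 391 CPM in PUS10KO libraries 1 to 4, against 414, 488, 351 and 329 CPM in control libraries 1 to 4. The 2 genotypes overlapped, and within each the libraries numbered 1 and 2 were above those numbered 3 and 4. The mean was 551 ± 147 CPM in PUS10KO and 395 ± 71.5 CPM in control (SD, n = 4 each; log2 fold change 0.48, SE 0.22, edgeR adjusted p = 0.2). Within numbers 1 to 4 the ratio of PUS10KO to control was 1.53, 1.45, 1.33 and 1.19, and with the block the adjusted p was 0.00409 (log2 fold change 0.45, SE 0.09). The annotation names 1 pseudogene after Slc25a5, and no source used here says how reads that match both were counted.

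Slc25a4, the ADP/ATP carrier best known from heart and muscle (ENSMUSG00000031633.4, chromosome 8, 46206797 to 46211284, minus strand), had 804, 893, 978 and 952 CPM in PUS10KO libraries 1 to 4, against 884, 1007, 1006 and 1045 CPM in control libraries 1 to 4. The ranges overlapped (907 ± 77.0 CPM in PUS10KO and 986 ± 70.1 CPM in control, SD, n = 4 each; log2 fold change -0.12, SE 0.12, edgeR adjusted p = 0.591, with the block 0.219). Per kilobase of exon, the level of Slc25a5 relative to Slc25a4 was 1.13, 1.14, 0.684 and 0.587 in PUS10KO libraries 1 to 4, against 0.669, 0.693, 0.499 and 0.45 in control libraries 1 to 4. The ratio was higher in PUS10KO within each number and higher in libraries 1 and 2 than in 3 and 4 in both genotypes. It was computed after the values of both genes had been seen and has no test.

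Slc25a3, the phosphate carrier that also brings copper into the matrix (ENSMUSG00000061904.12, chromosome 10, 91116574 to 91124059, minus strand), had 447, 480.2, 467 and 425 CPM in PUS10KO libraries 1 to 4, against 503, 597, 580.3 and 504 CPM in control libraries 1 to 4. No PUS10KO library reached a control library. The mean was 455 ± 24.1 CPM in PUS10KO and 546 ± 49.6 CPM in control (SD, n = 4 each; log2 fold change -0.26, SE 0.12, edgeR adjusted p = 0.19, with the block 0.0236). The median log2 fold change of all tested genes on chromosome 10 was -0.25, close to the value of Slc25a3 itself.

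Of the calcium-regulated ATP-Mg/phosphate carriers, which adjust the adenine nucleotide pool of the matrix, none of 3 passed the test and 1 rose with the block. Slc25a23 (ENSMUSG00000046329.14, chromosome 17, 57043711 to 57059863, minus strand) was the lowest member by level, with 11, 14, 19 and 38 counts in PUS10KO libraries 1 to 4, against 1, 4, 8 and 2 counts in control libraries 1 to 4. This was 0.606, 0.557, 0.802 and 2.06 CPM in PUS10KO, against 0.0487, 0.219, 0.412 and 0.0958 CPM in control. The genotypes did not overlap, and PUS10KO 4 stood far above the other 3 PUS10KO libraries. The log2 fold change was 2.34 (SE 0.68), and the edgeR adjusted p of 0.0533 just missed the threshold. With the block it was 0.0139, with DESeq2 0.0154 and with limma voom 0.0514. Leaving out 1 library at a time gave log2 fold changes of 1.75 to 3.02 and adjusted p of 0.0417 to 0.118, with the lowest without control 3. On the deposited normalized values, tested by limma with the block, its log2 fold change was 0.47 (adjusted p = 0.0196). Its exons share 168 bases with the antisense gene Gm17168, whose reads cannot be told from it without the strand setting.

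Slc25a24, the main member of that group by level, had 190.4 ± 46.5 CPM in PUS10KO and 169 ± 39.8 CPM in control (SD, n = 4 each; log2 fold change 0.17, edgeR adjusted p = 0.684). Slc25a25 had 45.6, 36.2, 21.7 and 17.4 CPM in PUS10KO libraries 1 to 4, against 40.4, 41.6, 20.6 and 17.1 CPM in control libraries 1 to 4. Its libraries numbered 1 and 2 were about as far above those numbered 3 and 4 in each genotype, and the genotypes were nearly level (log2 fold change 0.01, edgeR adjusted p = 0.988). Its exons share 379 bases with Naif1 on the other strand.

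The 3 di- and tricarboxylate carriers in the table held no call with genotype only, and with the block 1 rose and 1 fell. Slc25a10, the dicarboxylate carrier that exchanges malate or succinate for phosphate (ENSMUSG00000025792.9, chromosome 11, 120491840 to 120499187, plus strand), had 32.4, 38.7, 35.5 and 36.4 CPM in PUS10KO libraries 1 to 4, against 15.4, 30.8, 30.3 and 23.7 CPM in control libraries 1 to 4. The control libraries spread more widely and all lay below the PUS10KO libraries. The mean was 35.8 ± 2.61 CPM in PUS10KO and 25.1 ± 7.18 CPM in control (SD, n = 4 each; log2 fold change 0.51, SE 0.21, edgeR adjusted p = 0.162, with the block 0.0158). Its exons share 228 bases with the antisense gene Gm11788.

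Slc25a1, the citrate carrier (ENSMUSG00000003528.15, chromosome 16, 17925223 to 17928219, minus strand), had 79.7, 48.3, 87.9 and 119 CPM in PUS10KO libraries 1 to 4, against 96.8, 55.9, 115 and 130.2 CPM in control libraries 1 to 4. The genotypes overlapped widely (83.8 ± 29.1 CPM in PUS10KO and 99.6 ± 32.2 CPM in control, SD, n = 4 each; log2 fold change -0.25, SE 0.31, edgeR adjusted p = 0.674). Within numbers 1 to 4 the ratio of PUS10KO to control was 0.823, 0.864, 0.762 and 0.915, and with the block the adjusted p was 0.0372. The chromosome 16 median was -0.19. Slc25a11, the oxoglutarate carrier of the malate-aspartate shuttle, had 125, 98.9, 139.6 and 151 CPM in PUS10KO libraries 1 to 4, against 95.1, 99.9, 122 and 132 CPM in control libraries 1 to 4. Its ranges overlapped (log2 fold change 0.2, edgeR adjusted p = 0.51), and its exons share 189 bases with Rnf167 on the other strand.

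The aspartate/glutamate carriers, the calcium-sensing arm of that shuttle, had no call in either fit. Slc25a12 had 76.1 ± 10.3 CPM in PUS10KO and 72.0 ± 7.52 CPM in control, and its paralogue Slc25a13 had 46.7 ± 6.32 CPM in PUS10KO and 41.5 ± 4.49 CPM in control (SD, n = 4 each; log2 fold changes 0.08 and 0.17, edgeR adjusted p = 0.767 and 0.483). Per kilobase Slc25a12 stood at 0.599 to 0.965 of Slc25a13 in PUS10KO and at 0.774 to 1.03 in control. Slc25a22, a glutamate carrier, had 7.62 ± 2.81 CPM in PUS10KO and 6.14 ± 2.66 CPM in control (edgeR adjusted p = 0.655). The genotype ranges overlapped in each of these 3 genes, though PUS10KO was above control within every library number in all 3. With the block the edgeR adjusted p was 0.459 for Slc25a12, 0.174 for Slc25a13 and 0.107 for Slc25a22.

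The nucleotide and cofactor carriers formed the biggest group, with 11 members. None passed the test with genotype only, and 1, Slc25a32, rose with the block. Slc25a32, which carries folate and flavin (ENSMUSG00000022299.9, chromosome 15, 39091231 to 39112716, minus strand), had 167, 139, 86.4 and 99.5 CPM in PUS10KO libraries 1 to 4, against 103, 94.6, 74.2 and 93.9 CPM in control libraries 1 to 4. The ranges overlapped, with PUS10KO 1 and 2 the highest libraries (123 ± 36.8 CPM in PUS10KO and 91.4 ± 12.2 CPM in control, SD, n = 4 each; log2 fold change 0.43, SE 0.22, edgeR adjusted p = 0.251, with the block 0.0266). Within numbers 1 to 4 the ratio of PUS10KO to control was 1.62, 1.47, 1.16 and 1.06.

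Slc25a39, which brings glutathione into the matrix, had 167, 163, 155 and 157 CPM in PUS10KO libraries 1 to 4, against 135, 165, 187 and 170.1 CPM in control libraries 1 to 4. The PUS10KO values lay within the control range (log2 fold change -0.03, edgeR adjusted p = 0.907). Its paralogue Slc25a40 differed by 0.2 on the log2 scale (adjusted p = 0.435). Slc25a26, the S-adenosylmethionine carrier, had 4.46, 3.42, 4.56 and 3.73 CPM in PUS10KO, against 4.77, 5.53, 5.25 and 4.74 CPM in control. The PUS10KO libraries were all below the control libraries, but the difference passed neither fit (log2 fold change -0.33, edgeR adjusted p = 0.323, with the block 0.141). Its exons share 144 bases with Lrig1 on the other strand.

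The other cofactor carriers described were the NAD carrier Slc25a51, the coenzyme A carriers Slc25a16 and Slc25a42, the pyrimidine nucleotide carriers Slc25a33 and Slc25a36, and the peroxisomal Slc25a17. Slc25a51 had 101 ± 6.68 CPM in PUS10KO and 94.8 ± 3.89 CPM in control, and Slc25a17 had 146 ± 10.7 CPM in PUS10KO and 131 ± 10.3 CPM in control (SD, n = 4 each; edgeR adjusted p = 0.601 and 0.414). The log2 fold changes of Slc25a16, Slc25a42, Slc25a33 and Slc25a36 were -0.09, 0.38, 0.18 and -0.21, and none of them passed either fit. Slc25a33 had 12.9, 13.8, 6.92 and 5.79 CPM in PUS10KO libraries 1 to 4, against 8.52, 11.7, 7.78 and 6.66 CPM in control libraries 1 to 4. Libraries 1 and 2 were above 3 and 4 in both genotypes.

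The 7 other amino acid and carnitine carriers held no call in either fit, with log2 fold changes from -0.36 to 0.31. Slc25a20, the carnitine/acylcarnitine carrier of fatty acid oxidation, had 34.5 ± 3.94 CPM in PUS10KO and 39.4 ± 5.2 CPM in control. Slc25a15, the ornithine carrier of the urea cycle, had 32.2 ± 6.5 CPM in PUS10KO and 28.6 ± 4.57 CPM in control. The glycine carrier Slc25a38, which supplies haem synthesis, had 16.9 ± 2.12 CPM in PUS10KO and 19.1 ± 1.12 CPM in control (SD, n = 4 each for the 3 genes; edgeR adjusted p = 0.437, 0.603 and 0.451). Slc25a44, a carrier of branched-chain amino acids, had a log2 fold change of 0.02, Slc25a45 of 0.31, Slc25a47 of -0.16 and Slc25a29, a carrier of basic amino acids, of -0.36. Slc25a29 and Slc25a47 are neighbours on chromosome 12, where the median of all tested genes was -0.6.

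The mitoferrins, which carry iron for haem and iron-sulphur clusters, had no call in either fit. Slc25a37 had 23.9 ± 6.79 CPM in PUS10KO and 26.1 ± 5.5 CPM in control, and Slc25a28 had 18.7 ± 2.47 CPM in PUS10KO and 20.5 ± 3.09 CPM in control (SD, n = 4 each; both log2 fold changes -0.13, edgeR adjusted p = 0.775 and 0.655). The relatives of the uncoupling proteins held no call either. Slc25a14 had 8.22 ± 1.74 CPM in PUS10KO and 6.58 ± 1.81 CPM in control, Slc25a30 had 54.4 ± 7.25 CPM in PUS10KO and 63.8 ± 7.47 CPM in control, and Slc25a27 had 2.24 ± 1.1 CPM in PUS10KO and 2.04 ± 0.396 CPM in control (log2 fold changes 0.32, -0.23 and 0.13, edgeR adjusted p = 0.475, 0.339 and 0.869).

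Among the outer membrane members none passed the test with genotype only and Mtch1 fell with the block. Mtch1 (ENSMUSG00000024012.18, chromosome 17, 29332072 to 29347934, minus strand) had 235, 222, 298 and 376 CPM in PUS10KO libraries 1 to 4, against 269, 276, 419 and 408 CPM in control libraries 1 to 4. The ranges overlapped, and libraries 3 and 4 were above 1 and 2 in both genotypes (283 ± 70.3 CPM in PUS10KO and 343 ± 81.8 CPM in control, SD, n = 4 each; log2 fold change -0.28, SE 0.22, edgeR adjusted p = 0.484, with the block 0.0345). Within numbers 1 to 4 the ratio was 0.875, 0.807, 0.712 and 0.921. Its paralogue Mtch2, an outer membrane insertase, had 206 ± 16.2 CPM in PUS10KO and 213 ± 14.2 CPM in control (log2 fold change -0.04, adjusted p = 0.844). Slc25a46, which takes part in mitochondrial fusion and fission, had 81.3 ± 16.9 CPM in PUS10KO and 90.7 ± 15.2 CPM in control (adjusted p = 0.645), and its exons share 383 bases with B930094E09Rik on the other strand.

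**Figure D4:**
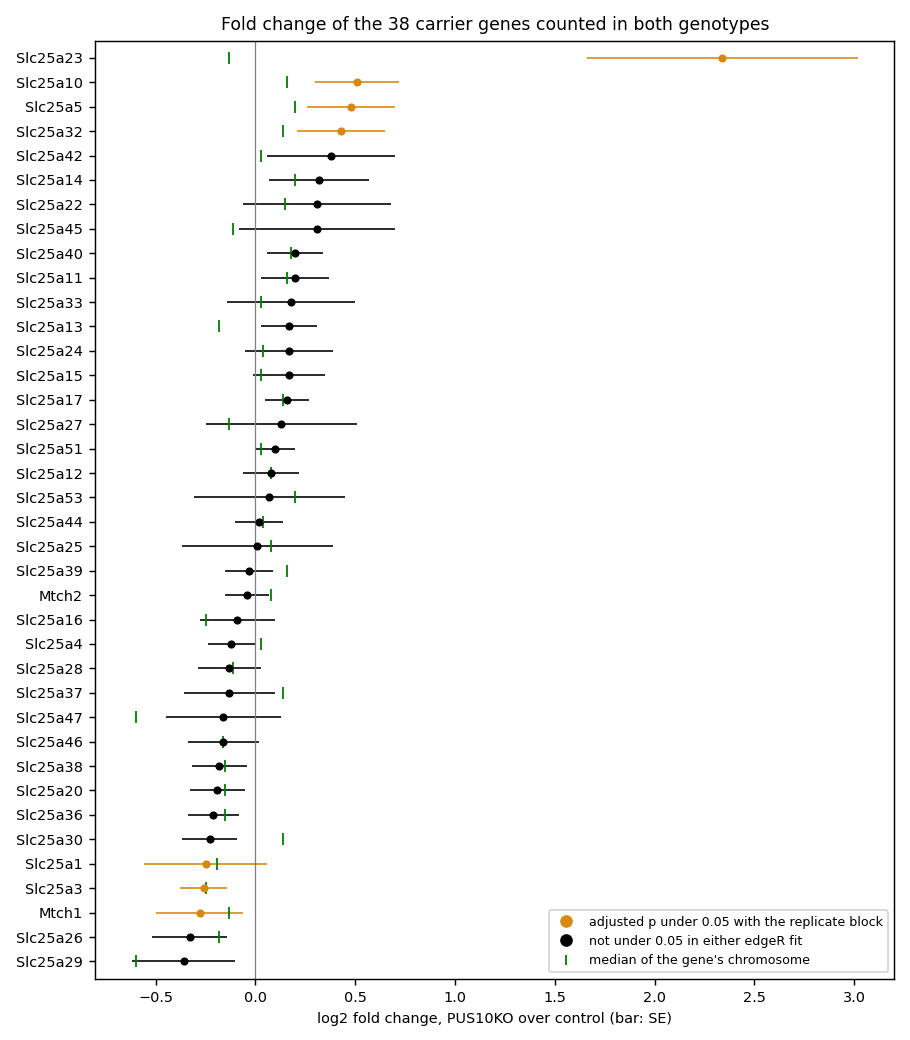
Log2 fold change, PUS10KO over control, of 38 of the 39 members counted in both genotypes, with bars of 1 SE from the edgeR fit with genotype only. Slc25a23 stands apart at 2.34, and the other 37 members shown lie between -0.36 and 0.51.

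Levels of different members were compared per kilobase of exon. Slc25a4 led with 385 ± 32.7 CPM per kilobase in PUS10KO and 419 ± 29.8 in control, and Slc25a5 came next with 334 ± 89.2 in PUS10KO and 240.3 ± 43.4 in control (SD, n = 4 each). Slc25a4 was above Slc25a5 in 6 of the 8 libraries, the exceptions being PUS10KO 1 and 2. Of the summed level of all members Slc25a4 made up 25.9%, 27.3%, 32.3% and 32.5% in PUS10KO libraries 1 to 4, against 31.3%, 32.8%, 33.7% and 35.2% in control libraries 1 to 4. Slc25a5 made up 29.1%, 31.0%, 22.1% and 19.1% in PUS10KO, against 21.0%, 22.7%, 16.8% and 15.8% in control. The pair thus took roughly equal parts in PUS10KO 1 and 2, while Slc25a4 exceeded Slc25a5 in the other libraries.

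Slc25a3 followed with 81.9 ± 4.35 CPM per kilobase in PUS10KO and 98.4 ± 8.93 in control, then Slc25a39 with 58.3 ± 2.03 in PUS10KO and 59.6 ± 7.9 in control, and Slc25a11 with 60.6 ± 10.5 in PUS10KO and 52.9 ± 8.32 in control (SD, n = 4 each). Below them came Mtch1, Slc25a24, Slc25a17, Slc25a1, Mtch2, Slc25a51, Slc25a32, Slc25a46, Slc25a30, Slc25a13, Slc25a12, Slc25a44, Slc25a10, Slc25a20 and Slc25a38. The lower part of the order, as far as described, ran from Slc25a36 through Slc25a15, Slc25a28, Slc25a33, Slc25a37, Slc25a16, Slc25a25, Slc25a14, Slc25a40, Slc25a22 and Slc25a26 to Slc25a43, Slc25a29, Slc25a47, Slc25a27, Slc25a42, Slc25a45, Slc25a53 and Slc25a23. Of the 39 pairs of neighbours in this order, 3 had ranges over the 8 libraries that did not meet: Slc25a5 above Slc25a3, Slc25a3 above Slc25a39, and Mtch2 above Slc25a51. The ranges of the other 36 pairs met. Of the 39 pairs, 7 kept the same order in all 8 libraries, these 3 included, so ranges that meet do not show equal levels.

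Several members followed the library number in both genotypes. In 10 members libraries 1 and 2 were above libraries 3 and 4 in PUS10KO as well as in control, among them Slc25a5, Slc25a24, Slc25a25, Slc25a32, Slc25a33 and Slc25a37. In 8 members they were below, among them Slc25a1, Slc25a11, Slc25a14, Mtch1 and Mtch2. The same held for 21.8% and 22.9% of all tested genes. The genotype ranges did not overlap in 5 members, or 12.5%, against 20.3% of all tested genes. Slc25a43, Slc25a23 and Slc25a10 were the higher ones in PUS10KO, where 9.70% of all genes stood above control in this way, and Slc25a3 and Slc25a26 the lower ones, where 10.6% stood below.

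Genes that work with the carriers, for import, calcium handling and the use of the carried metabolites, were counted next. Of 75 partner genes in 8 lists, all tested, 1 rose and 5 fell, or 8.0% called against 13.0% of all genes. With the block 9 rose and 16 fell, or 25 of the 75, where 39.0% of all genes were called, 19.1% higher and 19.9% lower. Their median log2 fold change was -0.03, against 0.01 over all genes. The lists had been chosen with earlier results of these data known.

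The calcium uniporter list held 3 of the 5 falls among its 9 genes, of which 2 are described. Of all genes tested 7.11% fell. Mcu, the pore of the uniporter (ENSMUSG00000009647.13, chromosome 10, 59446984 to 59616692, minus strand), had 46.6, 40.3, 37.5 and 36.4 CPM in PUS10KO libraries 1 to 4, against 66.3, 77.5, 80.8 and 77.4 CPM in control libraries 1 to 4. The groups lay well apart (40.2 ± 4.58 CPM in PUS10KO and 75.5 ± 6.34 CPM in control, SD, n = 4 each; log2 fold change -0.91, SE 0.12, edgeR adjusted p = 0.00195). Tested genes on chromosome 10 had a median of -0.25 on the same scale.

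Slc8b1, the sodium/calcium exchanger that lets calcium out of the matrix (ENSMUSG00000032754.14, chromosome 5, 120511168 to 120534024, plus strand), had 3.75, 3.86, 4.73 and 5.95 CPM in PUS10KO libraries 1 to 4, against 9.34, 11.7, 12.9 and 10.1 CPM in control libraries 1 to 4. All PUS10KO libraries were below all control libraries (4.57 ± 1.02 CPM in PUS10KO and 11.0 ± 1.6 CPM in control, SD, n = 4 each; log2 fold change -1.27, SE 0.21, edgeR adjusted p = 0.00475). The other 6 genes of the list did not pass the test. Of these, Smdt1, a small regulatory subunit of the uniporter, differed by 0.02 on the log2 scale (adjusted p = 0.936), and Mcub, the paralogue of Mcu, by 0.3 (adjusted p = 0.253).

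Of the 11 shuttle and citrate enzymes 1 fell, where 7.11% of all genes fell. Got1, the cytosolic aspartate aminotransferase of the malate-aspartate shuttle (ENSMUSG00000025190.13, chromosome 19, 43499752 to 43524605, minus strand), had 61.9, 43.6, 33.6 and 37.3 CPM in PUS10KO libraries 1 to 4, against 107, 87.2, 74.9 and 90.7 CPM in control libraries 1 to 4. The groups did not overlap (44.1 ± 12.5 CPM in PUS10KO and 89.9 ± 13.2 CPM in control, SD, n = 4 each; log2 fold change -1.03, SE 0.21, edgeR adjusted p = 0.0117). The carriers of the same shuttle, Slc25a11, Slc25a12 and Slc25a13, did not pass the test. Mcu, Slc8b1 and Got1 were each called in all 8 fits that left out 1 library.

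Of the 11 folate, proline and carnitine enzymes 1 rose, where 5.90% of all genes rose. Cpt1c, a carnitine palmitoyltransferase best known from neurons (chromosome 7), had 28.1, 34.8, 43.8 and 41.9 CPM in PUS10KO libraries 1 to 4, against 12.4, 12.5, 25.0 and 24.3 CPM in control libraries 1 to 4. The PUS10KO libraries were all above the control libraries (log2 fold change 1.0, SE 0.28, edgeR adjusted p = 0.0463). The call was lost without PUS10KO 2, 3 or 4 or control 1 or 2, with an adjusted p up to 0.119. Of the 8 genes of iron-sulphur and haem synthesis 1 fell, where 7.11% of all genes fell. Isca2, an iron-sulphur assembly factor (chromosome 12), had 9.92, 6.8, 8.32 and 7.9 CPM in PUS10KO, against 16.7, 13.1, 12.9 and 11.4 CPM in control. The groups did not overlap (log2 fold change -0.72, SE 0.18, adjusted p = 0.0331), the chromosome 12 median was -0.6, and the call was lost without PUS10KO 2, 3 or 4 or control 1, 2 or 3 (adjusted p up to 0.0869).

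No gene passed the test among the 16 of the import route that inserts carriers into the inner membrane, the 11 other inner membrane carriers, the 5 outer membrane channel and permeability genes, or the 4 regulators of mitochondrial content. With the block 2 import genes rose and 2 fell, 2 of the other carriers rose and 1 channel gene fell. In that fit 19.1% of all genes rose and 19.9% fell. The median log2 fold changes of these lists were 0.02, 0.02, 0.01 and -0.1.

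**Figure D5:**
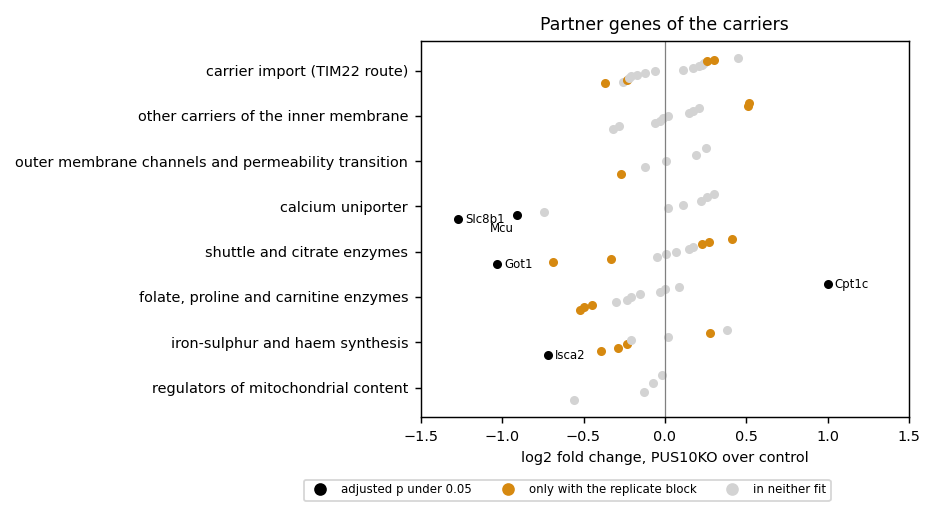
Log2 fold change, PUS10KO over control, of 74 of the 75 partner genes by list, 1 point per gene. Black points passed the edgeR test with genotype only. Orange points passed the edgeR test with the replicate block but not the one with genotype only, and grey points passed neither of these fits. Slc8b1 and Mcu lie at -1.27 and -0.91, Got1 at -1.03, Isca2 at -0.72 and Cpt1c at 1.0.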

How the data were processed

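Stranded total RNA libraries of 8 fibroblast samples were sequenced in paired-end mode, per the labels. The authors deposited whole-number read counts per gene, not normalized, for 12211 genes, and a normalized table whose values fit a log2 scale, which no source used here states. STAR 2.7.8a, DESeq2 and mm10 are named in the submitters' processing notes. The read counter, strand setting, annotation and gene filter used are not given in the sources read here. The lowest row total was 27 counts, so rarely read genes were mostly left out before deposit. Totals of 17561114 to 24563499 counts set the precision of low genes.

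The deposited counts were tested with edgeR 4.0.16 in R 4.3.3 (filterByExpr, TMM, robust quasi-likelihood test, genotype as the only term), leaving 11909 genes, over which p-values were adjusted by Benjamini-Hochberg; rose and fell mean an adjusted p under 0.05. Alternatives used DESeq2 1.42.0, limma 3.58.1 with voom, RLE factors, no filter, the deposited log2 values, a replicate block and 8 fits each without 1 library. The test was tested on simulated data. Log2 fold changes are PUS10KO over control.

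Libraries were grouped by title. Same-numbered libraries deviated together from their genotype means (across genes, which are not independent replicates, r was 0.661, 0.692, 0.606 and 0.667 for numbers 1 to 4, and at most 0.562 with another number), and the number was therefore treated as a pairing. The pairing comes from the counts, since the labels do not say what a number shares. Replicates of a genotype differed by more than counting noise in all pairs (chi-square per degree of freedom at least 18.22).

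Positions and exon lengths came from GENCODE M21 (GRCm38), matched for 12196 rows, and promoter windows from RefSeq (GRCm38.p6). Members and lists were chosen with earlier results of these data known. By rule, values in every library are given for members that pass the test, Slc25a43 and the 5 highest members per kilobase, for up to 4 called genes per partner list, and for label checks; other members given in full, and Cfap47, were named after their values were seen. Results of 2 genes, 1 member and 1 partner, are counted in the totals but not reported here.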

Additional observations from a re-analysis of the deposited data

Results flagged for a closer look

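Of 79 sets of 4 libraries (each member in each genotype, where not all at 0), 4 held 1 library far from the other 3; chance gives about 1 in 20. Slc25a29 stood at 1.98 CPM in PUS10KO 1, against 1.51 to 1.57 CPM in the other PUS10KO libraries. Slc25a51 was low in PUS10KO 1, at 91.5 CPM, against 104 to 106 CPM in the other PUS10KO libraries. Slc25a23 was high in PUS10KO 4, at 2.06 CPM, against 0.557 to 0.802 CPM in the other PUS10KO libraries. Slc25a38 was low in control 3, at 17.5 CPM, against 19.6 to 19.8 CPM in the other control libraries.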

How the results depend on the processing

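RLE size factors and limma voom gave the same counts as the edgeR fit with genotype only: 1 member rose, 0 fell, 1 partner gene rose and 5 fell. Without the filter on low counts 2 members rose, and with DESeq2 2 members and 3 partner genes rose and 8 partner genes fell. With the replicate block, under the pairing by number, 5 members rose and 3 fell, and 9 partner genes rose and 16 fell. The deposited normalized values with the replicate block gave 5 and 3 members, and 10 and 15 partner genes. Leaving out 1 library at a time gave 1 to 2 members that rose and 0 that fell, and 0 to 1 partner genes that rose and 4 to 5 that fell. Without PUS10KO 2, 3 or 4 or control 1 or 2 no partner gene rose, since Cpt1c lost its call, and without control 3 a second member, Slc25a23, rose.

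Of 560 fold changes of members under these alternatives 528 kept their direction and side of the threshold, 17 passed it only there, and 15 changed sign, all with a library left out. Over the 8 such fits the log2 fold change of Slc25a39 ran from -0.11 to 0.04, of Slc25a27 from -0.14 to 0.33, of Slc25a25 from -0.25 to 0.22, of Slc25a33 from -0.02 to 0.37, of Slc25a53 from -0.11 to 0.51, of Slc25a47 from -0.32 to 0.01, of Slc25a44 from -0.05 to 0.06 and of Slc25a16 from -0.18 to 0.08. The cause was not tested. By the longest transcript in place of all exons, 2 members (Slc25a44 and Slc25a25) moved over 3 places in the order of levels. The top of the order changed as well. Mtch1 moved from position 6 to 3, above Slc25a3 at 4, and Slc25a11 from 5 to 7. Depth limits low members such as Slc25a23.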
